A study of Mus musculus with 34 samples.

Results

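The 9 epithelial junction genes described here are Cdh1, Epcam, Cldn4, Cldn6, Cldn7, Ocln, Tjp1, Esrp1 and Crb3. They were taken by symbol from every gene table of the series, as 9 of 46785 genes in the 24 tables of embryo sections and 9 of 37145 genes in the 6 culture tables. On mm10, as the section tables place them, Cdh1 spans chr8:106603351-106670246, Tjp1 chr7:65296165-65371239, Cldn7 chr11:69964779-69967885, Ocln chr13:100496507-100552718, Esrp1 chr4:11331933-11386783, Crb3 chr17:57059105-57065918, Epcam chr17:87635979-87651106, Cldn6 chr17:23679365-23682446 and Cldn4 chr5:134945119-134946934. The series follows Evx1as, a long non-coding RNA antisense to the homeobox gene Evx1, and 30 of its 34 samples have a table used here. The cultures are 3 libraries of a knock-in line labelled 4x polyA KI and 3 of the wild-type line CJ9, all mouse embryonic stem cells of strain 129S1/SVImJ at day 4 after withdrawal of LIF, the cytokine that keeps them undifferentiated. The embryo libraries come from pieces cut by laser out of frozen sections of C57/B6 embryos, embryonic day 7, and were made by Geo-seq, which profiles a few captured cells with their position known. They hold 5 homozygous (Evx1as-/-) and 3 heterozygous (Evx1as+/-) mesoderm sections, 5 homozygous and 6 heterozygous primitive streak sections, and 1 anterior epiblast section of each genotype. Each streak and mesoderm section carries a layer number between 1 and 11, whose direction the labels do not give. No wild-type embryo is among the sections, so the heterozygous ones, which carry a mutant allele too, are the controls. The labels describe neither the mutant allele nor the site of the knock-in, and do not say whether the knock-in cultures come from 1 clone.

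An epithelial sheet is held together near its apical side by adherens junctions, built on the cadherin encoded by Cdh1, and by tight junctions, in which claudins (Cldn4, Cldn6, Cldn7) and occludin (Ocln) span the membrane and the scaffold protein ZO-1 (Tjp1) ties them to actin. Epcam encodes a surface adhesion protein of epithelia, Crb3 an apical membrane protein that sets polarity, and Esrp1 an RNA-binding protein that directs epithelial splicing. In the gastrulating mouse embryo, epiblast cells leave the epithelium at the primitive streak and become mesenchymal mesoderm, a transition in which loss of E-cadherin, the product of Cdh1, and repression of Cdh1 by Snai1 are well known.

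Levels are FPKM (fragments counted per kilobase of transcript, scaled to library size), a scale on which genes of a table can be compared. A culture had 12758 to 13073 genes at 1 FPKM or more and a section 6806 to 10959, and sequencing depth is not given. Evx1as, listed as 5730457N03Rik, stood at 0.0674, 0.137 and 0.0798 FPKM in the knock-in cultures, against 5.99, 5.84 and 3.94 FPKM in the wild-type cultures. The streak marker T ranged over 5.18 to 22.2 FPKM in the mesoderm sections and 50.8 to 297 FPKM in the streak sections, so the region labels and this marker did not conflict. Title and cell type label conflict for 3 more sections, which entered none of the main comparisons and were added only in alternative fits given at the end. No label says which embryo a section came from, and sections of a genotype may share one, so every p-value over sections below is too small. In a captured piece or a culture, fewer cells of a type and less RNA per cell cannot be told apart. Changes are on the log2(FPKM + 1) scale, which understates changes of low genes. They were tested with limma over all genes whose mean reached 1 FPKM, and p-values were adjusted by Benjamini-Hochberg (BH) with a threshold of 0.05.

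Across the 21 sections with clear labels, the 9 genes did not move as one. Cdh1 was high in every streak section and low in every mesoderm section. Epcam had the same order with some overlap. Within the streak, Cldn6, Crb3, Cldn4, Esrp1 and Cldn7 were highest at layer 1. Ocln and Cldn4 were near 0 in most of the rest. Summed over the 9 genes, FPKM were 8.88 to 132 in the mesoderm sections, 283 to 408 at streak layer 1 and 22.0 to 118 in streak layers 3 to 11. The sum was 174 in the homozygous and 131 in the heterozygous anterior epiblast section. Cldn6, an embryonic claudin, supplied most of this sum at layer 1, with 61.8% in the homozygous and 71.1% in the heterozygous section. Cdh1 supplied 1.61% to 7.54% of the sum in the mesoderm sections. In the streak sections of layers 3 to 11 it supplied 8.35% to 51.1%.

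**Figure D1:**
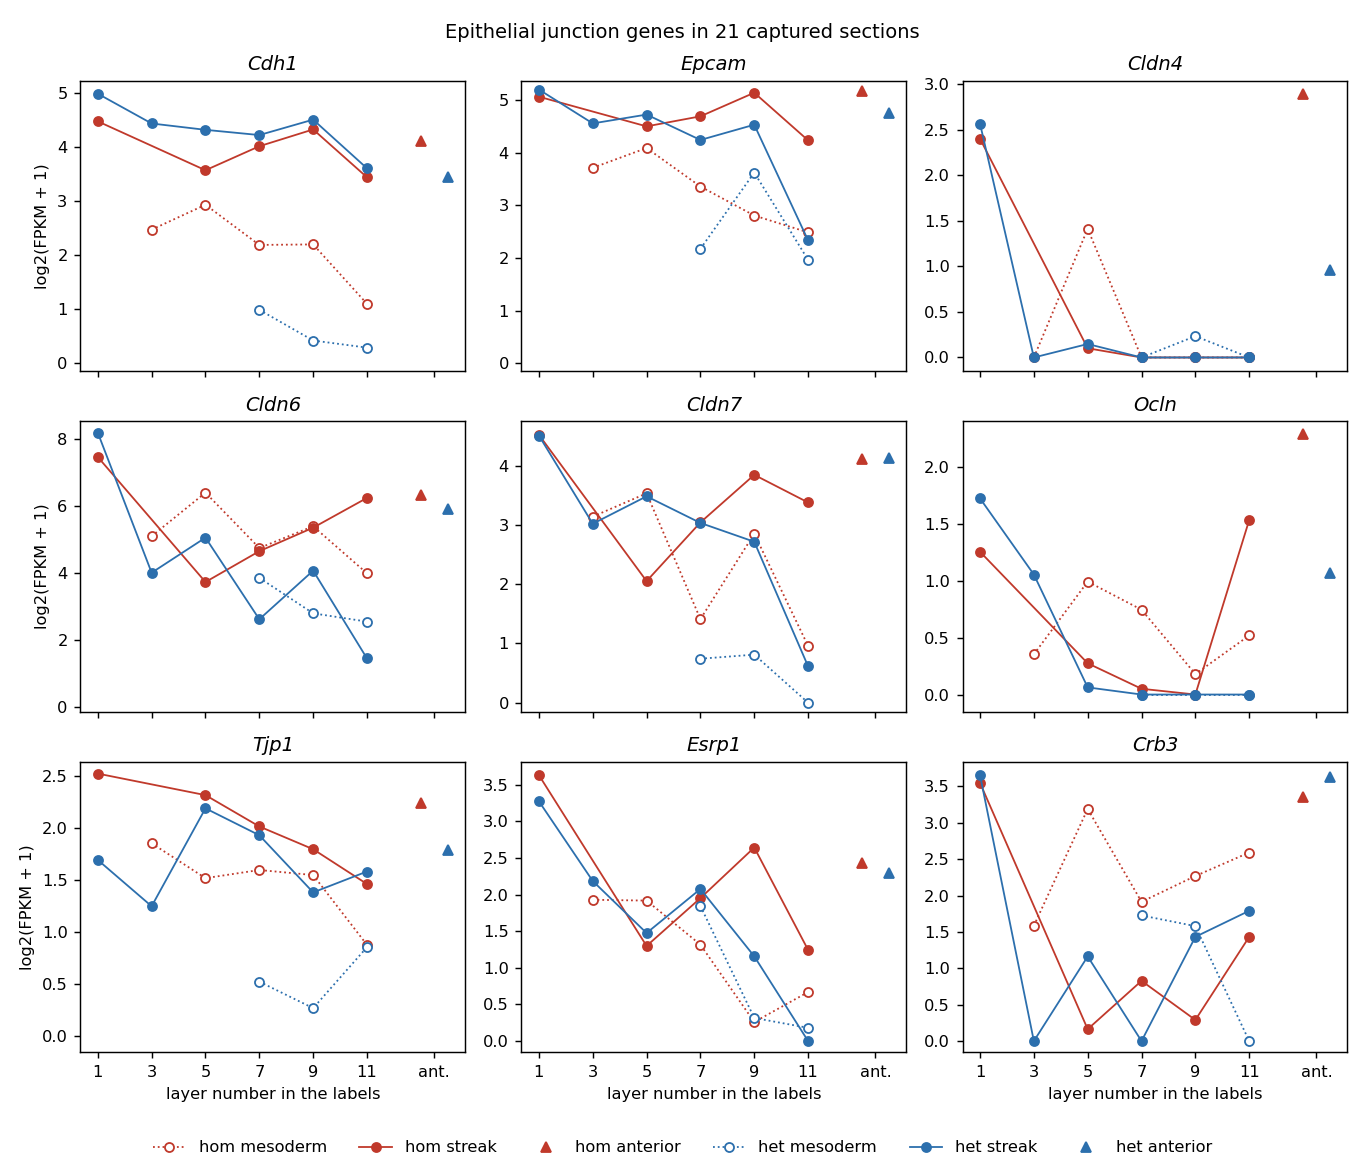
Level of each of the 9 genes, as log2(FPKM + 1), against the layer number in the labels, with 1 point per section. Red marks homozygous and blue heterozygous embryos, open circles with dotted lines mesoderm, filled circles with full lines streak, and triangles anterior epiblast (ant.). Cdh1 lies at 0.219 to 6.64 FPKM in the mesoderm and 9.87 to 30.8 FPKM in the streak, and within the streak Cldn6 and Crb3 are highest at layer 1.

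Promoter windows of 250 bases before to 50 bases after a transcript start were read from RefSeq on GRCm38.p6 for the 7 members that matched; Cdh1 and Esrp1 are named only. They are shown because the zinc-finger repressors of Cdh1, encoded by Snai1 and Zeb genes, are known to bind E-boxes of the form CAGGTG. That motif, or CACCTG, which is the same motif on the other strand, was present in 8 of the 10 windows of these members. Some windows of 1 gene overlap. By gene, 6 of the 7 had it and Tjp1 did not, while 20.2% of all 32851 windows held it. A match is a description of letters, not a bound site, and CAGGTG after a start can also be the edge of an intron, since introns usually begin with GT. The windows of the 4 genes below are given 5′ to 3′ on the gene's strand, with the motif in capitals. Epcam lies at chr17:87635729-87636028 (plus strand), Cldn6 at chr17:23679115-23679414 (plus strand), Crb3 at chr17:57061951-57062250 (plus strand) and Cldn4 at chr5:134946885-134947184 (minus strand).
Epcam: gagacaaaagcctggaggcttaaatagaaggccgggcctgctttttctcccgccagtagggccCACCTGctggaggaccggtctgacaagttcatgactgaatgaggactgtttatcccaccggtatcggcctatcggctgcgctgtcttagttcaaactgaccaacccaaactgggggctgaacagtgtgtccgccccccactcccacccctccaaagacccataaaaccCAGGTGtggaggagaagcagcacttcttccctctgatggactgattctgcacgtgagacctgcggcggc
Cldn6: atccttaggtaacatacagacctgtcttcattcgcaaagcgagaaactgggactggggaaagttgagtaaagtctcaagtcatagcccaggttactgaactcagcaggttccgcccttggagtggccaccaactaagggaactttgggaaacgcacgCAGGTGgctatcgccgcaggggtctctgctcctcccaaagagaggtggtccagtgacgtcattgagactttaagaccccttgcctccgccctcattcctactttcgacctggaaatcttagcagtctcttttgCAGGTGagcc
Crb3: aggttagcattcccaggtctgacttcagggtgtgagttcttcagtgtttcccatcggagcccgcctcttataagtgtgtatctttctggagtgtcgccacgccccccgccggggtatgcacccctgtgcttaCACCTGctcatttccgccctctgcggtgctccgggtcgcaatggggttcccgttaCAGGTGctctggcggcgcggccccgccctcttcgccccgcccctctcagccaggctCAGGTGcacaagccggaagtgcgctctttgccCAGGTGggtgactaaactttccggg
Cldn4: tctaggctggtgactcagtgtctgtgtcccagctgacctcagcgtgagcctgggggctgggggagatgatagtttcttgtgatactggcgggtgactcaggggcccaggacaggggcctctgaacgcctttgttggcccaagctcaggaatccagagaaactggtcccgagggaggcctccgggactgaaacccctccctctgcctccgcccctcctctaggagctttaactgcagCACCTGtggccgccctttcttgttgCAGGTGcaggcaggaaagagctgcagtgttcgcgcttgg
The Epcam window holds the motif 19 bases before the start and again farther upstream. The Cldn6 window holds it at 93 bases before the start and again at base 41 of the transcript. The Crb3 window holds 4 copies, more than any other window of these genes apart from its own overlapping neighbour, which holds the same number. The Cldn4 window holds it on either side of the start, at 14 bases before it and at base 12 of the transcript.

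Mesoderm was compared with streak within 7 pairs of the same genotype and layer, 4 homozygous and 3 heterozygous, which asks how the junction genes differ once cells have left the streak; p-values over these sections are too small. Cdh1 and Epcam fell in mesoderm, and no member rose. Of 7 members tested, 2 were lower past the threshold, beside 8.62% of all 9146 genes tested, 8.04% being lower and 0.579% higher. The median log2 change of the 7 members was -0.76, against -0.34 for all genes. Cldn4 and Ocln did not reach the filter in these sections and have no test.

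Cdh1 stood at 6.64, 3.56, 3.59 and 1.14 FPKM in the homozygous mesoderm sections of layers 5, 7, 9 and 11. The streak sections of the same layers had 10.9, 15.2, 19.1 and 9.87 FPKM. In heterozygous embryos, layers 7, 9 and 11 had 0.982, 0.336 and 0.219 FPKM in mesoderm and 17.7, 21.8 and 11.2 FPKM in streak. Every mesoderm section was below every streak section, and Cdh1 was the only tested member without overlap, beside 0.908% of all genes. The mean was 2.35 ± 2.36 FPKM in mesoderm and 15.1 ± 4.60 FPKM in streak (SD, n = 7 each), a log2 change of -2.51 (SE 0.36, 95% interval -3.29 to -1.74, limma BH-adjusted p = 0.00477). The change passed in the heterozygous pairs alone, at -3.55 (limma BH-adjusted p = 0.0304), and in the homozygous pairs alone, at -1.74 (limma BH-adjusted p = 0.0478). After scaling by the median ratio, which centres each library on the genes above 0 in every fitted section, it was -2.19 (limma BH-adjusted p = 0.0328). With no filter on low genes, the adjusted p was 0.0585 at the same change.

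Epcam had 16.0, 9.24, 5.99 and 4.60 FPKM in homozygous mesoderm, against 21.6, 24.8, 34.2 and 17.8 FPKM in homozygous streak at layers 5, 7, 9 and 11. It had 3.51, 11.3 and 2.90 FPKM in heterozygous mesoderm, against 17.9, 22.1 and 4.04 FPKM in heterozygous streak at layers 7, 9 and 11. It was lower in mesoderm in 7 of 7 pairs, but the heterozygous streak section of layer 11 lay among the mesoderm values. The means were 7.65 ± 4.78 FPKM in mesoderm and 20.3 ± 9.08 FPKM in streak, a log2 change of -1.31 (SE 0.28, limma BH-adjusted p = 0.0202). This call was less secure than that of Cdh1: after scaling the change was -0.90 (adjusted p = 0.14), and leaving out 4 of the 7 pairs in turn, the homozygous layers 7, 9 and 11 and the heterozygous layer 7, each gave an adjusted p of 0.0503 to 0.063.

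Among the tight junction genes, Tjp1 was lower in mesoderm in 7 of 7 pairs, with means of 1.16 ± 0.764 FPKM in mesoderm and 2.53 ± 0.837 FPKM in streak, without passing (log2 change -0.76, limma BH-adjusted p = 0.0726). Cldn7 averaged 2.98 ± 3.96 FPKM in mesoderm and 6.65 ± 4.18 FPKM in streak (-1.20, adjusted p = 0.0847) and was lower in 6 of 7 pairs. Cldn7 and Tjp1 passed when all 19 streak and mesoderm sections were fitted without pairing, at -1.27 (adjusted p = 0.0256) and -0.70 (adjusted p = 0.0245). Cldn6 did not follow them: its means were 27 ± 27.7 FPKM in mesoderm and 24.7 ± 25.3 FPKM in streak, with 5 pairs higher and 2 lower (0.23, 95% interval -0.79 to 1.25, adjusted p = 0.781). In the 8 mesoderm sections Cldn6 ranged from 4.81 to 83.1 FPKM and was the highest of the 9 genes by median in both genotypes.

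The polarity gene Crb3 went the opposite way to Cdh1 in most pairs, without passing. It stood at 8.13, 2.77, 3.82 and 5.03 FPKM in homozygous mesoderm, against 0.120, 0.775, 0.223 and 1.70 FPKM in the paired streak sections. The heterozygous values were 2.31, 1.99 and 0 FPKM in mesoderm and 0, 1.70 and 2.46 FPKM in streak. Crb3 was higher in mesoderm in 6 of 7 pairs, 4 of 4 homozygous and 2 of 3 heterozygous ones. The change of 1.05 on the log2 scale missed the threshold (95% interval 0.04 to 2.05, limma BH-adjusted p = 0.166). Esrp1 averaged 1.15 ± 1.15 FPKM in mesoderm and 2.20 ± 1.72 FPKM in streak (-0.55, adjusted p = 0.315).

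**Figure D2:**
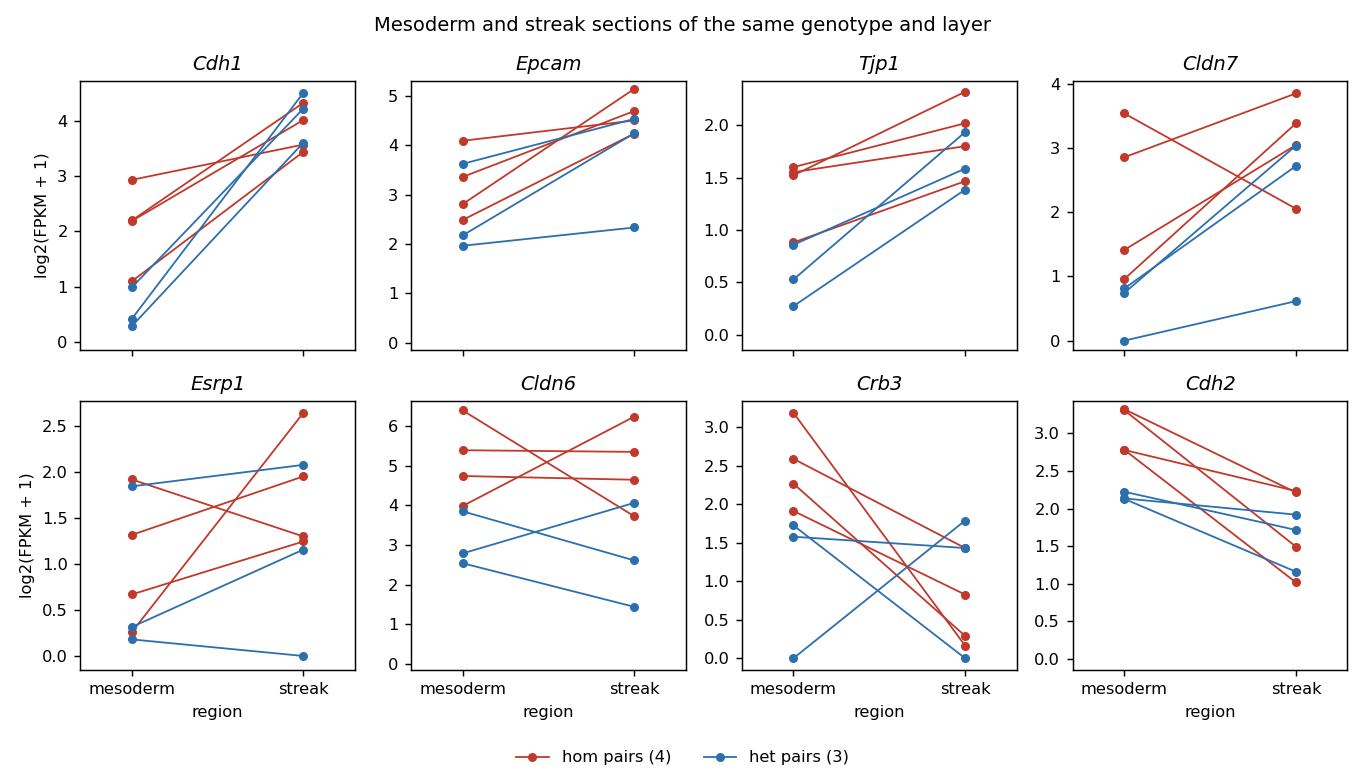
Levels, as log2(FPKM + 1), in mesoderm and streak sections joined by genotype and layer, for the 7 members tested and for N-cadherin (Cdh2). Red lines are the 4 homozygous and blue lines the 3 heterozygous pairs. Cdh1, Epcam and Tjp1 are lower in mesoderm in 7 of 7 pairs, Crb3 is higher in 6 of 7, and Cdh2 is higher in 7 of 7.

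Other epithelial genes gave a mixed picture in the same pairs. Of 8 other tight junction genes tested, 1 fell: F11r, which encodes the junctional adhesion molecule JAM-A, averaged 2.88 ± 2.33 FPKM in mesoderm and 8.82 ± 2.96 FPKM in streak (log2 change -1.54, limma BH-adjusted p = 0.0221). None of 7 other adherens junction genes passed. Keratins of simple epithelia rose, Krt8 with means of 14.5 ± 5.19 FPKM in mesoderm and 5.38 ± 3.71 FPKM in streak (1.40, adjusted p = 0.0253) and Krt18 (1.70, adjusted p = 0.0436), of 4 desmosome and keratin genes tested. Among 8 repressors of Cdh1 and mesenchymal genes, 3 rose and none fell. These were Twist1, a mesodermal transcription factor (1.40, adjusted p = 0.0163), Cdh2, the cadherin that replaces E-cadherin in mesenchyme (0.99, adjusted p = 0.0382), and Fn1, which encodes fibronectin (0.76, adjusted p = 0.0395). Snai1 averaged 11.3 ± 7.27 FPKM in mesoderm and 10.4 ± 5.04 FPKM in streak (0.07, adjusted p = 0.899). Of 7 streak markers, 6 fell, T by 3.54 on the log2 scale (adjusted p = 0.000118).

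Markers of endoderm were present in both regions. The 12 visceral endoderm markers summed to 11.9 to 659 FPKM in the mesoderm sections and 1.10 to 1030 FPKM in streak layers 3 to 11, and of 7 tested none passed. Of 7 definitive endoderm and node markers tested, 2 rose in mesoderm, Cer1 (log2 change 2.85, limma BH-adjusted p = 0.0310) and Cxcr4 (1.64, adjusted p = 0.0120). Their list summed to 6.46 to 414 FPKM in mesoderm, against 1.37 to 81.2 FPKM in streak layers 3 to 11. Without the pairs that hold a section with 10 FPKM or more of Afp plus Ttr (homozygous layers 9 and 11), the Cdh1 change was -2.63 with an adjusted p of 0.056, and that of Epcam -1.02 with an adjusted p of 0.134. The part of these cells in the results was not tested further.

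Streak layer 1 was set against layers 3 to 11, with 1 section per genotype at layer 1 and 9 sections in the rest, and again with p-values that are too small. Cldn6 and Crb3 rose at layer 1. These were 2 of 7 members tested, beside 2.34% of all 9932 genes, 2.19% being higher, and 4 of the 7 tested members did not overlap, beside 12.9% of all genes. The median log2 change of the 7 was 1.69, against 0.30 for all genes.

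Cldn6 stood at 175 FPKM in the homozygous and 290.0 FPKM in the heterozygous section of layer 1, and ranged from 1.71 through a median of 15.7 to 74.4 FPKM in layers 3 to 11 (log2 change 3.63, SE 0.81, limma BH-adjusted p = 0.0267). Crb3 stood at 10.7 FPKM in the homozygous and 11.6 FPKM in the heterozygous section of layer 1, with 0, 0.775 and 2.46 FPKM as the lowest, median and highest values of layers 3 to 11 (2.82, SE 0.52, adjusted p = 0.00846). Both layer 1 sections were above every other streak section for these genes. Their libraries also had more genes at 1 FPKM or more, 10559 in the homozygous and 10959 in the heterozygous one, against 6806 to 9911 in layers 3 to 11. The part of this in the changes was not tested. Esrp1, at 11.4 FPKM in the homozygous and 8.68 FPKM in the heterozygous section of layer 1 against at most 5.25 FPKM elsewhere in the streak, did not overlap either, without passing (1.87, adjusted p = 0.0992). Cldn7, at 22.0 and 21.8 FPKM in those sections against at most 13.4 FPKM, was likewise not past (1.69, adjusted p = 0.233). Cldn4 was below the filter, with 4.28 FPKM in the homozygous and 4.92 FPKM in the heterozygous section of layer 1, and at most 0.108 FPKM in layers 3 to 11, where 7 of 9 sections list it at 0. Cdh1 averaged 26 ± 6.77 FPKM at layer 1 and 16.2 ± 4.52 FPKM elsewhere (0.70, 95% interval -0.08 to 1.49, adjusted p = 0.439), and Epcam 34.0 ± 2.33 and 21.1 ± 8.06 FPKM in the same order (0.78, adjusted p = 0.571).

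The layer 1 sections carried markers of the node and definitive endoderm. Of 8 such markers tested 6 rose, led by Noto, a node homeobox gene (log2 change 6.83, limma BH-adjusted p = 1.16e-06), and Foxa2 (5.32, adjusted p = 0.000565), and the 10 markers summed to 560.0 and 594 FPKM at layer 1, against 1.37 to 81.2 FPKM in layers 3 to 11. Desmosome and keratin genes rose with them, 4 of 6 tested, among them Krt8 with 66.4 ± 18.6 FPKM at layer 1 and 5.83 ± 3.34 FPKM elsewhere (3.45, adjusted p = 0.00161) and Perp, a desmosome protein (3.21, adjusted p = 0.00502). Of 10 other tight junction genes tested, Cldn9 rose (3.38, adjusted p = 0.00204). Cdh2 rose as well (2.18, adjusted p = 0.0119), with 14.4 ± 0.563 FPKM at layer 1 and 2.58 ± 1.20 FPKM elsewhere. The mesoderm gene Mesp1 fell by 3.90 on the log2 scale (adjusted p = 0.00811). How much of the Cldn6 and Crb3 change comes with node or endoderm cells was not tested. With 1 layer 1 section in the fit, a group that then takes its spread from the other sections, Cldn6 had a change of 4.75 (adjusted p = 0.0736) and Crb3 one of 2.78 (adjusted p = 0.117) without the homozygous section, and 2.47 (adjusted p = 1) and 2.87 (adjusted p = 0.507) without the heterozygous one.

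Along the streak from layer 3 to 11, where p-values are too small as well, no member passed a test for a trend with the layer number (0 of 6 tested, beside 0.0105% of all genes, and 0 at an unadjusted p under 0.05 in limma, beside 6.61% of all genes). The steepest slope was that of Epcam, -0.16 log2 per layer number (95% interval -0.34 to 0.02, limma BH-adjusted p = 0.708), where the heterozygous section of layer 11 was lowest, with 4.04 FPKM. Along the mesoderm all 7 slopes of tested members were below 0 and none passed (beside 0.0115% of all genes), with 3 at an unadjusted p under 0.05, beside 4.86% of all genes. Esrp1 and Cldn7 both had -0.24 per layer number (adjusted p = 0.883 and 0.968), and Cdh1 had -0.17 (adjusted p = 0.968). In homozygous mesoderm Cdh1 was lowest at layer 11, with 1.14 FPKM, and highest at layer 5, with 6.64 FPKM, and in heterozygous mesoderm it was lowest at layer 11 too.

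Anterior epiblast, an epithelium away from the streak, was set against all 11 streak sections, with p-values that are too small for the same reason. No member of 8 tested passed, beside 0.406% of all 9854 genes, and 1 was at an unadjusted p under 0.05 in limma, beside 9.88% of all genes. Cdh1 had 16.4 FPKM in the homozygous and 9.93 FPKM in the heterozygous anterior section, within the streak range of 9.87 to 30.8 FPKM (log2 change -0.38, 95% interval -1.23 to 0.47, adjusted p = 0.759; 0.03 after scaling). Crb3 had 9.27 and 11.4 FPKM, above every streak section except those of layer 1 (2.20, adjusted p = 0.409). The labels of both anterior sections name layers that lie between 3 and 7. Against streak layers 3 to 7 only, which are nearest to them by label, Crb3 passed, at 3.07 (limma BH-adjusted p = 0.0144). Cldn4 had 6.41 FPKM in the homozygous and 0.940 FPKM in the heterozygous anterior section. Streak markers fell in the anterior sections, 5 of 7 tested, T by 5.50 on the log2 scale (adjusted p = 7.96e-07). Of 6 anterior epiblast and pluripotency markers tested, 3 rose, Sox2 (2.94, adjusted p = 0.0127), Pou3f1 and Utf1. In that list 4 changes were above 0 and 2 below. Snai1 averaged 0.291 ± 0.412 FPKM in anterior epiblast and 10.6 ± 5.74 FPKM in streak, just short of the threshold (-2.99, adjusted p = 0.0583).

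For Cdh1 the order of the mean levels by place was streak layer 1 (26 FPKM), streak layers 3 to 11 (16.2 FPKM), anterior epiblast (13.2 FPKM), homozygous mesoderm (3.90 FPKM) and heterozygous mesoderm (0.512 FPKM). The ranges of streak layer 1 and of anterior epiblast each overlap that of streak layers 3 to 11 but not each other, the mesoderm sections lie below all of them, and the mesoderm genotypes do not overlap with each other. For Crb3 layer 1 (11.1 FPKM) and anterior epiblast (10.3 FPKM) led, and streak layers 3 to 11 (0.914 FPKM) came after homozygous (4.35 FPKM) and heterozygous mesoderm (1.43 FPKM). Both mesoderm ranges overlapped that of streak layers 3 to 11, 0 to 2.46 FPKM. The heterozygous mesoderm range, 0 to 2.31 FPKM, lay inside it.

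**Figure D3:**
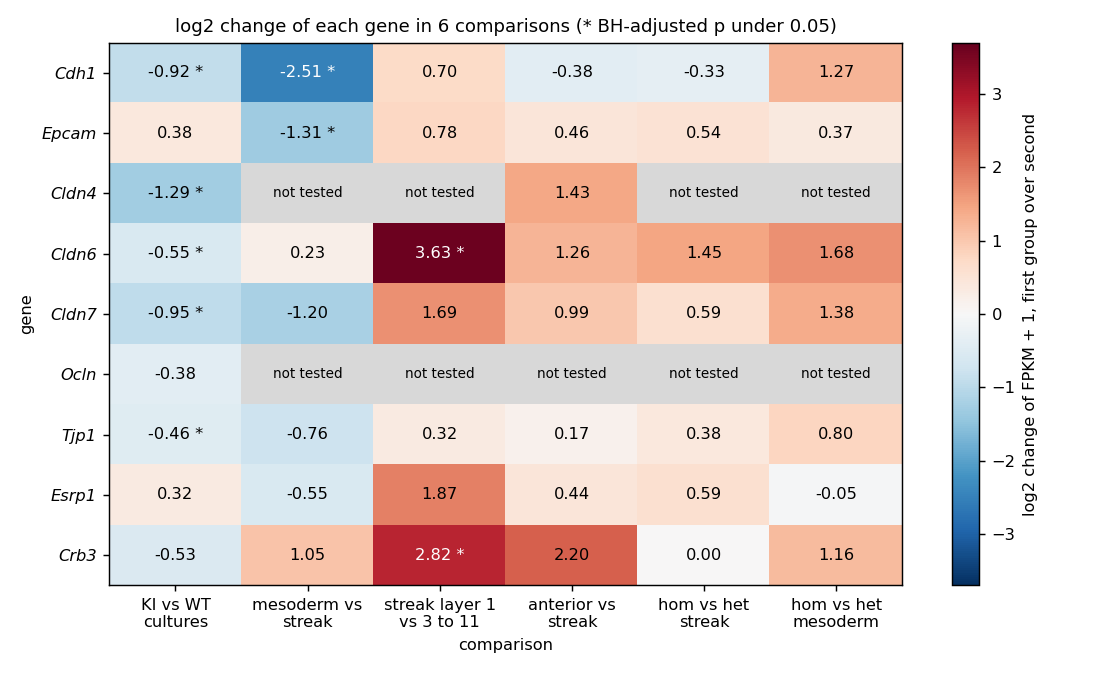
log2 change of FPKM + 1 for each of the 9 genes in 6 comparisons, each named with the group on top of the change first. Red is higher and blue lower in the first group, an asterisk marks a BH-adjusted p under 0.05, and grey marks genes below the filter. The 5 asterisks in cultures are all on lower genes, the 2 at streak layer 1 on higher ones, and the genotype comparisons of sections have none.

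Between genotypes, no member passed in any of the 3 comparisons, although p-values over sections are too small. In streak, 0 of 7 members passed, beside 0.0201% of all genes, and 0 were at an unadjusted p under 0.05 in limma, beside 10.2% of all genes. None of the 7 was free of overlap between genotypes, beside 0.846% of all genes. Cdh1 had 21.3, 10.9, 15.2, 19.1 and 9.87 FPKM in homozygous streak at layers 1, 5, 7, 9 and 11, against 30.8, 19.0, 17.7, 21.8 and 11.2 FPKM in heterozygous streak. It was lower in the homozygous section at each of these 5 layers, by 0.17 to 0.74 on the log2 scale, while the groups as a whole overlapped (log2 change -0.33, 95% interval -0.94 to 0.27, BH-adjusted p = 0.666). Cldn6 had the widest change in streak, 1.45 (95% interval -0.20 to 3.10, adjusted p = 0.531). Beyond layer 1 the homozygous sections had 12.2 to 74.4 FPKM and the heterozygous ones 1.71 to 32.1 FPKM. At matched layers the homozygous section was higher in 3 pairs and lower in 2. The values of 74.4 and 1.71 FPKM were both from layer 11. There the homozygous section held 52.5 FPKM of Afp plus Ttr, and the heterozygous library had 6806 genes at 1 FPKM or more, the fewest of any section.

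In mesoderm, 0 of 7 members passed, beside 0.196% of all genes, and 3 were at an unadjusted p under 0.05 in limma, beside 15.5% of all genes. Of the 9 members, 5 did not overlap between genotypes (4 of the 7 tested), each being higher in the homozygous sections, beside 9.66% of all tested genes without overlap. The libraries differed in the same direction. Those of heterozygous mesoderm had 7025 to 8057 genes at 1 FPKM or more, and those of homozygous mesoderm 8420 to 9403. The part of this gap in low values of the members was not tested. Cdh1 had 4.55, 6.64, 3.56, 3.59 and 1.14 FPKM in the homozygous sections of layers 3, 5, 7, 9 and 11, against 0.982, 0.336 and 0.219 FPKM in the heterozygous ones of layers 7, 9 and 11 (log2 change 1.27, SE 0.37, BH-adjusted p = 0.164). Cldn6 averaged 39.5 ± 26.2 FPKM in homozygous mesoderm (n = 5) and 8.04 ± 4.69 FPKM in heterozygous mesoderm (n = 3; 1.68, limma BH-adjusted p = 0.164). Cldn7 averaged 5.46 ± 4.11 and 0.476 ± 0.414 FPKM in the same order (1.38, adjusted p = 0.242), and Tjp1 1.86 ± 0.644 and 0.486 ± 0.305 FPKM (0.80, adjusted p = 0.359). Ocln was listed at 0 in all 3 heterozygous mesoderm sections and ranged from 0.133 to 0.992 FPKM in the 5 homozygous ones. The median change of the 7 tested members was 1.16, against 0.31 for all genes.

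Markers of several cell types moved with this difference. Streak markers summed to 66.3 to 87.4 FPKM in homozygous and 13.4 to 41.6 FPKM in heterozygous mesoderm, with a median change of 2.28 over the 5 tested, of which 1 passed, Wnt3 (2.39, limma BH-adjusted p = 0.0302). Of these 5 changes, 4 were above 0 and 1 below. The streak marker T had a mean of 7.82 FPKM in homozygous mesoderm and 12.1 FPKM in heterozygous mesoderm, where the layer 9 section had 22.2 FPKM. Its medians had the other order, 8.49 FPKM in homozygous and 7.93 FPKM in heterozygous mesoderm, and the groups overlapped. Anterior epiblast and pluripotency markers summed to 46.7 to 119 FPKM in homozygous and 11.2 to 41.7 FPKM in heterozygous mesoderm, with a median change of 0.83 over the 5 tested, 4 above 0 and 1 below, and none past. Definitive endoderm and node markers had a median of 1.07 over 7 tested, all above 0 and none past. Visceral endoderm markers summed to 38.1 to 659 FPKM in homozygous and 11.9 to 34.9 FPKM in heterozygous mesoderm, all 6 tested had a change above 0, with a median of 1.96, none passed, and Afp was listed at 0 in all 3 heterozygous sections. Streak and anterior epiblast markers did not overlap between the genotypes in these sums, and neither did visceral endoderm markers. Without the homozygous section of layer 9, which held 18.9 FPKM of Afp plus Ttr, the change of Cdh1 was 1.12 and that of Cldn6 1.43. The part of any of these cells in the members' values was not tested further. The Cdh1 difference between mesoderm and streak was itself smaller in homozygous embryos by 1.81 on the log2 scale (95% interval 0.67 to 2.96), which did not pass over all genes (limma BH-adjusted p = 0.648, unadjusted p = 0.00503); 0.0109% of all genes passed, and 1 of 7 members was under an unadjusted 0.05, beside 6.14% of all genes. Fitted over all 19 streak and mesoderm sections, 0 of 7 members passed, beside 1.25% of all genes, 1.13% being higher, and 3 were at an unadjusted p under 0.05, beside 20.2% of all genes. All 7 overlapped between genotypes, beside 0.0315% of all genes that did not. The changes of all 7 were above 0, with a median of 0.49 against 0.24 for all genes, Cldn6 having 1.45 (adjusted p = 0.131) and Tjp1 0.56 (adjusted p = 0.126). Markers moved in the same fit: 4 of 7 streak markers rose and 1, T, fell, with a median of 1.33, 3 of 6 anterior epiblast and pluripotency markers rose, with a median of 1.10, 1 of 9 definitive endoderm and node markers rose, Gsc, and none of 7 visceral endoderm markers passed, with a median of 1.20. Their part in the members' values was not tested.

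In the day 4 cultures, which ask how the knock-in line differs as the cells leave pluripotency, 5 members fell in the knock-in line and none rose. They were Cdh1, Cldn4, Cldn6, Cldn7 and Tjp1, of 9 tested, beside 32.4% of all 13133 genes past the threshold and 16.2% lower. The median log2 change of the 9 was -0.53, against 0.02 for all genes. In 8 of the 9 the groups did not overlap, beside 48.4% of all genes. Nothing in the labels says that the replicates are separate cultures, so these p-values measure the spread between libraries only.

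Cdh1 had 115, 101 and 122 FPKM in the knock-in cultures, against 218, 227 and 196 FPKM in the wild-type cultures (log2 change -0.92, SE 0.12, 95% interval -1.18 to -0.65, limma BH-adjusted p = 0.00128). Cldn4 had 80.1, 71.5 and 74.6 FPKM, against 206, 223 and 138 FPKM in wild type (-1.29, SE 0.18, limma BH-adjusted p = 0.00208). Cldn6, the highest of the 9 genes in every culture, had 252, 252 and 275 FPKM in the knock-in cultures, against 404, 388 and 349 FPKM in wild type (-0.55, SE 0.10, limma BH-adjusted p = 0.00627). All of these knock-in values lay below all wild-type values. Cldn7 followed, with 64.9, 59.5 and 54.2 FPKM in the knock-in cultures and 122, 133 and 94.7 FPKM in wild type (-0.95, SE 0.15, adjusted p = 0.00333). Tjp1 had 34.0, 34.3 and 29.5 FPKM in the knock-in cultures and 51.2, 44.1 and 40.2 FPKM in wild type (-0.46, SE 0.13, adjusted p = 0.0355). Of these 5 calls that of Tjp1 was the least secure: without wild-type replicate 1 it had an adjusted p of 0.118, without wild-type replicate 2 one of 0.0785, and without any 1 knock-in replicate 0.0652 to 0.0802.

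Epcam and Esrp1 had the other sign and did not pass. Epcam had 54.6, 43.3 and 36.3 FPKM in the knock-in cultures and 33.5, 34.9 and 32.6 FPKM in wild type (0.38, limma BH-adjusted p = 0.103), and passed without knock-in replicate 3 (0.52, adjusted p = 0.0344). Esrp1 averaged 15.9 ± 0.306 FPKM in the knock-in and 12.6 ± 1.15 FPKM in the wild-type cultures (0.32, adjusted p = 0.0923). Crb3 had 48.9, 32.3 and 31 FPKM in the knock-in cultures and 56.5, 62.3 and 43.2 FPKM in wild type, the only member whose groups overlapped (-0.53, adjusted p = 0.087), and passed without knock-in replicate 1 (-0.74, adjusted p = 0.0276). Ocln, at 3.36 ± 0.0944 and 4.69 ± 0.667 FPKM in the same order, was the lowest of the 9 genes in every culture (-0.38, adjusted p = 0.107).

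**Figure D4:**
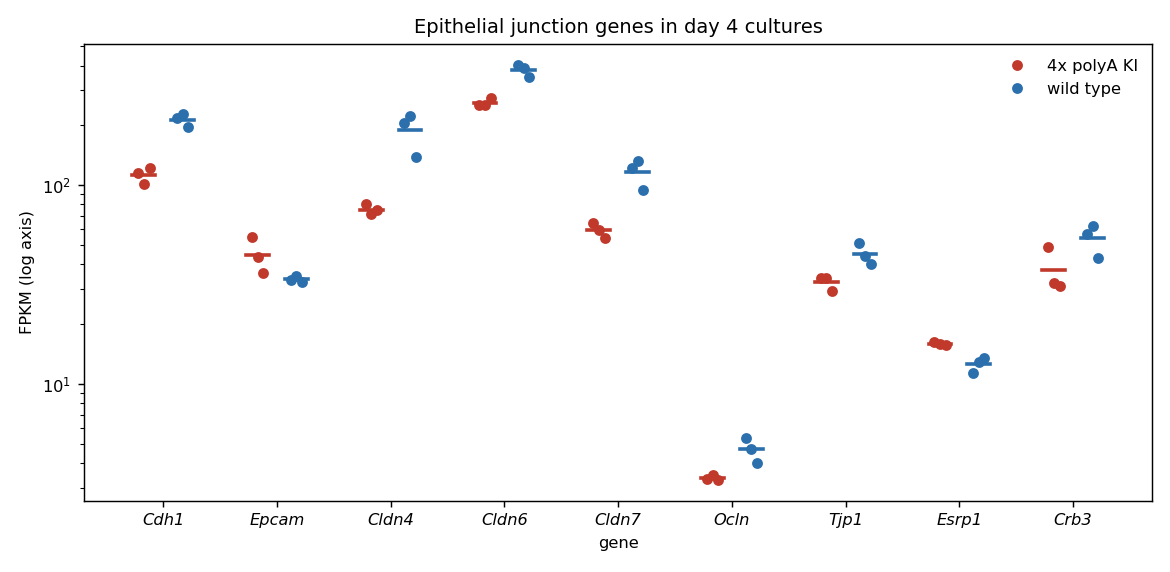
FPKM of the 9 genes on a log axis in the 3 knock-in (red, left of each pair) and 3 wild-type (blue, right) day 4 cultures, with points for libraries and bars for means. Cdh1, Cldn4, Cldn6, Cldn7, Ocln and Tjp1 lie lower in every knock-in library, and Epcam and Esrp1 lie higher in every knock-in library.

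Other epithelial genes fell with them in the knock-in cultures. Of 9 desmosome and simple keratin genes 8 fell and none rose, with Krt19 at 22.5 ± 2.99 FPKM in knock-in and 176 ± 18.3 FPKM in wild-type cultures (log2 change -2.92, limma BH-adjusted p = 6.74e-05) and Krt8 at 116 ± 16.1 and 482 ± 130 FPKM in the same order (-2.02, adjusted p = 0.000587). Of 10 adherens junction genes 7 fell, among them Vcl, which encodes vinculin (-1.29, adjusted p = 0.00125), Jup, which encodes plakoglobin (-1.02, adjusted p = 0.00554), and the alpha-catenin gene Ctnna1 (-0.83, adjusted p = 0.00121), and 1 rose, the nectin gene Pvrl1 (0.72, adjusted p = 0.0335). Of 14 other tight junction genes 5 fell and none rose, led by the cingulin gene Cgn (-1.37, adjusted p = 0.00102). Of 10 apical polarity genes 4 fell and 1 rose, led by Llgl2 (-1.67, adjusted p = 0.000547); this list and the tight junction list share 5 genes. Of 9 epithelial regulators 7 fell, led by Tfap2a (-3.63, adjusted p = 0.000183) and Klf5 (-1.87, adjusted p = 0.000134).

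Genes of the mesenchymal side fell too. Of 8 repressors of Cdh1 and mesenchymal genes tested, 3 fell, Fn1 (log2 change -2.97, limma BH-adjusted p = 6.74e-05), Vim, which encodes vimentin (-1.52, adjusted p = 0.000514), and Snai1, with 8.98 ± 1.53 FPKM in knock-in and 24.2 ± 9.17 FPKM in wild-type cultures (-1.28, adjusted p = 0.0112), while Twist1 rose (0.89, adjusted p = 0.00948). So Cdh1 and its repressor gene Snai1 were both lower in the knock-in cultures. Markers of other cells differed between the lines: 5 of 7 streak markers fell, with T at 10.7 ± 5.13 FPKM in knock-in and 155 ± 39.7 FPKM in wild-type cultures, 6 of 7 anterior epiblast and pluripotency markers rose, and 6 of 8 extraembryonic ectoderm and trophoblast markers fell. The 9 trophoblast markers summed to 11.1 to 16.9 FPKM in the knock-in and 61.7 to 144 FPKM in the wild-type cultures, led by Gata3 at 27.9 ± 11.7 FPKM in wild type, and the visceral endoderm genes Afp and Ttr were listed at 0 in all 6. The part of these cell types in the members' values was not tested. The 5 calls held after median-ratio scaling, with changes of -0.47 to -1.30. The table names carry an L number, which may be a lane, though no label used here says so. Among the libraries with the number that both lines share (2 knock-in libraries and 1 wild-type library), Cdh1 was -1.02 and Tjp1 -0.46. These values have no test, and their sign was fixed because the lines do not overlap for these genes.

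Across the 21 sections, the genes most like Cdh1 by Pearson r of log2(FPKM + 1) were Bex4 (0.90), Pigp (0.89), Bex1 (0.89), the tight junction gene F11r (0.88) and Vbp1 (0.88). Those most like Epcam were Ptprf (0.95), a receptor phosphatase, Psip1 (0.91), Acly (0.91), Tuba1a (0.89) and Igfbp2 (0.89). Among the members, Epcam and Cldn7 had r = 0.87, Cdh1 and Epcam 0.81, Cldn6 and Cldn7 0.81, Cdh1 and Cldn7 0.78, and Cdh1 and Tjp1 0.76. Cdh1 and Cldn6 had 0.43, and Cdh1 and Crb3 0.07. Cldn4 had 0.79 with Ocln and 0.74 with Crb3. Without the layer 1 sections, over 19 sections, it had 0.74 with Ocln and 0.63 with Crb3. Cldn4 was near 0 in most of these, so its r rests on few sections, among them the homozygous anterior section with 6.41 FPKM. Cdh1 and Snai1 had -0.13, and Cdh1 and Krt8 had -0.17 over all sections and -0.63 without layer 1. These are descriptions over sections that share regions and genotypes and may share embryos, at unknown depth, and carry no test.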

How the data were processed

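RNA-seq gene tables of 6 cultures and 24 embryo sections were used. The values are FPKM as the authors deposited them, 1 table per library in the column layout of Cufflinks. CASAVA, TopHat2 2.0.11 and the genome mm10 are named, per the submitters' processing notes; the program that made the FPKM is not given in the sources used here. Gene positions of the section tables match mm10 and those of the culture tables an earlier build. Whole read numbers were not recoverable from the values, so no count model was run and no counting interval is given. Libraries were made with a stranded mRNA kit, per the labels' protocols, and sections by Geo-seq. Rows repeated for an identifier were added, and values under 1e-06 FPKM were set to 0.

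Groups came from the labels. log2(FPKM + 1) of genes whose mean over the fitted libraries reached 1 FPKM was tested with limma 3.58.1 in R 4.3.3 (mean-dependent prior, two-sided, BH adjustment over all genes, threshold 0.05). Genotype comparisons had layer as a covariate, mesoderm and streak were compared within pairs, and layer 1, trend and anterior fits had genotype as a covariate. Members and gene lists were chosen with earlier results of these data known. Named genes are the 9 members, at most 4 genes past the threshold per list and comparison with the largest changes, some fixed markers, and the 5 genes most correlated with Cdh1 and with Epcam (mean of at least 5 FPKM). Replicate numbers of the cultures did not pair the libraries (correlations of deviations -0.12 to -0.05). Alternatives were pseudocount 0.1, no filter, median-ratio scaling, leaving out each library, a replicate block, adding the conflicting sections, and, chosen after seeing the data, leaving out sections with 10 FPKM or more of Afp plus Ttr and single layer 1 or anterior sections. The 4 posterior samples were not analysed here.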

Additional observations from a re-analysis of the deposited data

Results flagged for a closer look

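Of 27 sets of section values tested for a single sample far from the rest, 6 were marked. Chance marks about 1 in 20 sets of normally distributed values. These are FPKM, with many values at 0 for some genes, and the sets share libraries, so the 6 cannot be set against that rate. In 5 of them the sample apart is a layer 1 section of the streak. In the homozygous streak sections, layer 1 stood far above the others for Cldn4 (4.28 FPKM) and Crb3 (10.7 FPKM). In the heterozygous streak sections it stood far above the others for Cldn4 (4.92 FPKM), Cldn6 (290.0 FPKM) and Crb3 (11.6 FPKM). The sixth is Cldn4 in the homozygous mesoderm section of layer 5, at 1.66 FPKM, where the other 4 sections are listed at 0.

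For Cdh1 the homozygous section was lower than the heterozygous one at each of 5 streak layers and higher at each of 3 mesoderm layers. The median difference of the 3 mesoderm pairs was 1.20 on the log2 scale, homozygous minus heterozygous. The limma test of the difference of the changes gave 1.81 on the log2 scale with a BH-adjusted p of 0.648 over all genes, so it did not pass.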

How the results depend on the processing

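In the cultures, the count of 5 members past the threshold was 4 to 5 when each library was left out in turn, 4 with a replicate block and 4 with no filter. Tjp1 lost its call in 7 of 10 alternatives, with an adjusted p of 0.055 with no filter and 0.0632 with the block; in 2 of them another member passed instead, Crb3 without knock-in replicate 1 and Epcam without knock-in replicate 3. The numbers only name the libraries, and in the sections layer as a block gave 0 in the 3 genotype comparisons. The 2 members past the threshold between mesoderm and streak became 0 with no filter, 0 without the sections with 10 FPKM or more of Afp plus Ttr, 1 after median-ratio scaling, 1 without the pairing (no replicate block), 1 in heterozygous and 1 in homozygous pairs, 4 with all 19 sections, 4 with the conflicting sections added by title and 1 to 3 with each pair left out. Between genotypes, adding those sections by title gave 1 in mesoderm and 2 in both regions together, and adding them by cell type label gave 2 together. The added sections carry an L number of 5 or 6, and all other sections carry 2. Leaving out each section gave 0 to 1 together. At streak layer 1 the 2 members became 0 with a pseudocount of 0.1 and 0 to 0 with either layer 1 section left out, and the anterior comparison gave 1 against streak layers 3 to 7. The cause was not tested.

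Signs turned for small changes. Between genotypes in streak, Crb3 was 0.21 with a pseudocount of 0.1 and 0.01 with sections added by cell type label, where Cdh1 was 0.36, and ranged from -0.60 to 0.35 with a section left out. In mesoderm, Esrp1 was 0.11 with that pseudocount, 0.50 with sections added by title and 0.14 without the Afp and Ttr sections, and ranged from -0.38 to 0.36 with a section left out, and Epcam from -0.16 to 0.89. Between mesoderm and streak, Cldn6 was -0.27 with all 19 sections and -0.13 with sections added by title, and ranged from -0.18 to 0.65 with a pair left out. Streak trends with a section left out were -0.09 to 0.00 for Cdh1, -0.19 to 0.15 for Cldn6 and -0.22 to 0.09 for Cldn7, and the mesoderm trend of Crb3 was -0.17 to 0.05. Cdh1 in anterior epiblast was 0.03 after scaling and -0.90 to 0.15 with an anterior section left out. The cause was not tested. Depth is unknown, so values near 0 FPKM cannot be told from no expression.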

Other observations

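There were 3 sections whose title and cell type label name different regions, and their values stand here without a group. The section titled Evx1as-/- S3 had 19.0 FPKM of Cdh1, 27.9 FPKM of Epcam, 38.5 FPKM of Cldn6, 8.20 FPKM of Cldn7 and 0.318 FPKM of Crb3, with a sum of 104.0 FPKM over the 9 genes. The section titled Evx1as+/- M3 had 2.13 FPKM of Cdh1, 4.01 FPKM of Epcam, 1.22 FPKM of Cldn6, 2.03 FPKM of Cldn7 and 5.46 FPKM of Crb3, with a sum of 16.1 FPKM. The section titled Evx1as+/- M7 had 1.88 FPKM of Cdh1, 6.55 FPKM of Epcam, 11.1 FPKM of Cldn6 and 0.870 FPKM of Cldn7, with Crb3 listed at 0 and a sum of 22.0 FPKM.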
